A study of Mus musculus with 109 samples.

Results

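The 9 genes described here encode secreted factors that support retinal neurons, and their receptors: the ligands Bdnf, Ntf3, Gdnf, Fgf2, Cntf and Igf1, the receptors Ntrk2 and Ngfr, and the neurotrophin-inducible secreted protein Vgf. The rule that picks them names genes by this role and uses no measured value, although it was written with earlier results of these data known, and they are 9 of the 37315 genes in the count table. Their RNA was measured in 109 whole retinas of 64 mice aged 2 to 4 months at injection, of which 45 gave both eyes, after injection into the vitreous of the cytokines IL1A, TNF or IL1A+TNF, or of PBS, the vehicle. In the first batch, wild-type C57BL/6J retinas were taken at day 2 after PBS (n = 31), TNF (n = 8), IL1A (n = 9) or IL1A+TNF (n = 10), at day 14 after PBS (n = 7) or TNF (n = 6), and at day 35 after PBS (n = 6) or TNF (n = 9). In the second batch, retinas were taken at day 2 from wild-type mice after PBS (n = 5) or IL1A+TNF (n = 6) and from Sarm1-/- mice after PBS (n = 6) or IL1A+TNF (n = 6). Sarm1-/- mice carry a germline deficiency of SARM1, an enzyme that drives axon breakdown, and all Sarm1-/- retinas were in the second batch. No retina was left uninjected, so no difference given here is measured against an uninjected retina.

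As background, neurotrophins are small secreted dimers that keep neurons alive and shape their synapses. Brain-derived neurotrophic factor, the product of Bdnf, signals through the receptor tyrosine kinase TrkB, encoded by Ntrk2, and neurotrophin-3, the product of Ntf3, mainly through TrkC. The p75 receptor, encoded by Ngfr, binds all neurotrophins and their uncleaved precursors, and can carry survival or death signals. Glial cell line-derived neurotrophic factor, ciliary neurotrophic factor, basic fibroblast growth factor and insulin-like growth factor 1, the products of Gdnf, Cntf, Fgf2 and Igf1, signal through RET with a GFRA co-receptor, through gp130 and the LIF receptor, through FGF receptors and through the IGF1 receptor. In the retina, retinal ganglion cells respond to brain-derived neurotrophic factor from their brain targets and from retinal cells, and Müller glia are known to make Fgf2 and Cntf after injury.

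Between 30014757 and 79064488 read pairs were assigned to genes per retina, with a median of 39374202. Sarm1 itself stood at 25.97 to 52.9 CPM (reads of a gene scaled to a fixed total per library) in the 12 Sarm1-/- retinas and at 76.15 to 137.6 CPM in the wild-type retinas, so the ranges did not overlap, although the transcript was not absent. The 2 retinas named Sarm1-/- IL1A+TNF replicates 4 and 5 stood apart: their summed level of 11 ganglion cell markers was 160.5 and 137.5 CPM, against 338.9 to 997.1 CPM in the other 107 retinas, and that of 5 amacrine cell markers was 115.0 and 116.7 CPM, against 337.0 to 869.9 CPM. Each result that rests on these 2 retinas is given with and without them. Both retinas were female, as was replicate 3 of their group, while replicates 1, 2 and 6 were male. Without them, replicate 3 was the only female of that group, so leaving them out also changed its balance of sexes. Among the replicates then left, replicate 3 had the highest Gdnf and Fgf2 and the lowest Bdnf, Igf1 and Vgf. A difference between the sexes was not tested in Sarm1-/- retinas. The study dissected whole retinas, and in such bulk samples fewer cells of a type and less RNA per cell cannot be told apart.

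In GRCm38 (mm10) coordinates of the GENCODE annotation, Bdnf lies at chr2:109674700-109727007, Ntf3 at chr6:126101412-126166910, Gdnf at chr15:7810846-7837575, Fgf2 at chr3:37348346-37410108 and Cntf at chr19:12763660-12765632. Igf1 lies at chr10:87858265-87937042, Ntrk2 at chr13:58806569-59133970, Ngfr at chr11:95568818-95587735 and Vgf at chr5:137026392-137033351. All 9 are protein-coding genes. Exons of Cntf shared 78.9% of their length with Zfp91 on the same strand, exons of Fgf2 shared 9.44% with Nudt6 on the opposite strand, and exons of Bdnf shared 14.4% with an antisense transcript. Whether the counting used strand is not given in the sources used here, so reads in the shared stretches of Fgf2 and Bdnf cannot be assigned to 1 of the 2 genes, and counts of Cntf are uncertain for the same reason on either strand.

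Level per length set the members apart in the 31 PBS retinas of day 2. Per kilobase of exon, the receptor gene Ngfr stood highest at 12.2 ± 1.54 CPM (SD, n = 31), followed by Vgf at 8.67 ± 1.90, Ntrk2 at 5.80 ± 0.656, Igf1 at 4.55 ± 0.485 and Fgf2 at 3.34 ± 1.18. Bdnf followed at 1.58 ± 0.221 CPM per kilobase, Ntf3 at 0.529 ± 0.246, Cntf at 0.290 ± 0.0939 and Gdnf at 0.113 ± 0.0480. Of the neighbours in this order, the mean ± SD ranges overlapped for Igf1 and Fgf2, and likewise for Ntf3 and Cntf. The order was not tested. The value of Cntf was divided by its full exon length, of which 78.9% is shared with Zfp91, so its place is uncertain. The median retina held 838 read pairs of Fgf2 and 4264 of Ntrk2, but 31 of Ntf3, 15 of Gdnf and 12 of Cntf. All 9 passed the filter on low counts in every comparison, except Ntf3 at day 35.

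The main comparison asked what the combined injection, which the study used to injure ganglion cells, did to these genes after 2 days. Of the 9 members, 3 passed the test after IL1A+TNF: Fgf2 and Gdnf were higher and Igf1 was lower. Of all 19548 genes tested, 50.4% passed. The test was limma on voom-weighted counts with the mouse as a random block, and a gene was called at a Benjamini-Hochberg adjusted p under 0.05. Each difference below is a log2 fold change (1 is a doubling) with its standard error.

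Fgf2, a growth factor that glia release after injury, moved most. It stood between 8.89 and 42.2 CPM in the PBS retinas, with a median of 22.8 CPM, and between 35.0 and 74.7 CPM after IL1A+TNF, with a median of 53.2 CPM. All 10 IL1A+TNF retinas lay above the PBS mean and 9 of them above every PBS retina. Its log2 fold change was 1.31 ± 0.15 (limma adjusted p = 3.84e-11). In the 8 mice that gave both a PBS and an IL1A+TNF eye, Fgf2 was higher in the IL1A+TNF eye of all 8, by log2 ratios of 0.797 to 1.47. Nudt6, which overlaps Fgf2 on the opposite strand, stood at 37.8 ± 11.9 CPM after PBS (SD, n = 31) and 86.5 ± 16.9 CPM after IL1A+TNF (SD, n = 10). What share of the Fgf2 counts came from the stretch shared with Nudt6 was not tested.

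Gdnf supports neurons through RET. It ranged from 0.158 to 0.969 CPM in the PBS retinas (median 0.405 CPM) and from 0.413 to 1.86 CPM after IL1A+TNF (median 0.708 CPM), so the groups overlapped in part. Of the 10 IL1A+TNF retinas, 9 lay above the PBS mean and 2 above every PBS retina. This gave a log2 fold change of 0.89 ± 0.19 (limma adjusted p = 6.18e-05), and Gdnf was higher in the IL1A+TNF eye of all 8 mice with both eyes.

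Of the 9 members, 8 had promoter windows in RefSeq (16 in all, each from 250 bases before to 50 after a start, build GRCm38.p6), and the data bear on transcript levels only, not on binding there. The windows of Gdnf, the lowest member per kilobase and 1 of the 2 that rose, are shown because its annotated starts differ in the motifs searched. The 250 bases before each start, both on the plus strand, read as follows, with any matched motif in capitals.
Gdnf start 1, chr15:7809798-7810047: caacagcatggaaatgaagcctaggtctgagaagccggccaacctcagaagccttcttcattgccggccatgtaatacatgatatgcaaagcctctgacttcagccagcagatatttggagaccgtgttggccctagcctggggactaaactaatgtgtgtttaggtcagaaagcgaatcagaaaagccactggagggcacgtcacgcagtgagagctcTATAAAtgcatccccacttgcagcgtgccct
Gdnf start 2, chr15:7813477-7813726: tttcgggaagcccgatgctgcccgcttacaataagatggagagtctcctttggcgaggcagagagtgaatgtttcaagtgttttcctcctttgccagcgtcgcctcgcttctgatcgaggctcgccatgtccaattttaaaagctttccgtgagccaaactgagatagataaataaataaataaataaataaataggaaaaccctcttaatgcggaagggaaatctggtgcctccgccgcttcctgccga
The motifs searched, on both strands, were AP-1 (TGANTCA, in 7.79% of 32544 promoters), CRE (TGACGTCA, 1.8%), STAT (TTCNNNGAA, 8.33%), NF-kB (1.61%), Sp1 (GGGCGG, 35.9%) and the TATA box (TATAAA, 13.6%). The first Gdnf window held the TATA box 31 bases before the start and no other match, and the second held none. Elsewhere, AP-1 letters stood in the windows of Cntf and Igf1 and in 1 of 7 of Bdnf, and STAT letters in another of Bdnf. Sp1 letters stood in windows of Bdnf, Ntf3, Fgf2 and Ntrk2, and 4 times in that of Ngfr. Such matches describe the sequence and show neither binding nor regulation.

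Igf1, a survival factor for neurons, fell. It stood at 36.7 to 55.4 CPM after PBS (median 45.7 CPM) and at 27.6 to 49.1 CPM after IL1A+TNF (median 38.7 CPM). Of the 10 IL1A+TNF retinas, 8 lay below the PBS mean and 4 below every PBS retina. The log2 difference was -0.25 ± 0.06 (limma adjusted p = 0.000471). In the 8 mice with both eyes the direction was less even, with Igf1 lower in the IL1A+TNF eye of 6 and higher in that of 2.

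The other 6 members did not pass after IL1A+TNF, and for most of them the interval of the difference was narrow. The log2 fold change of Bdnf was 0.13, with an interval (± 2 SE) of -0.01 to 0.28, that of its receptor gene Ntrk2 was -0.09 (-0.22 to 0.04), and that of Ngfr was -0.11 (-0.23 to 0.01). Vgf stood at -0.10 (-0.34 to 0.13). The intervals of the low-count genes were wide, from -0.80 to 0.31 for Ntf3 and from -0.60 to 0.30 for Cntf. With each mouse as a fixed block, which uses only the 8 mice with both eyes, Vgf passed at a log2 fold change of -0.30 (limma adjusted p = 0.0275), and the calls of Fgf2, Gdnf and Igf1 did not change.

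**Figure D1:**
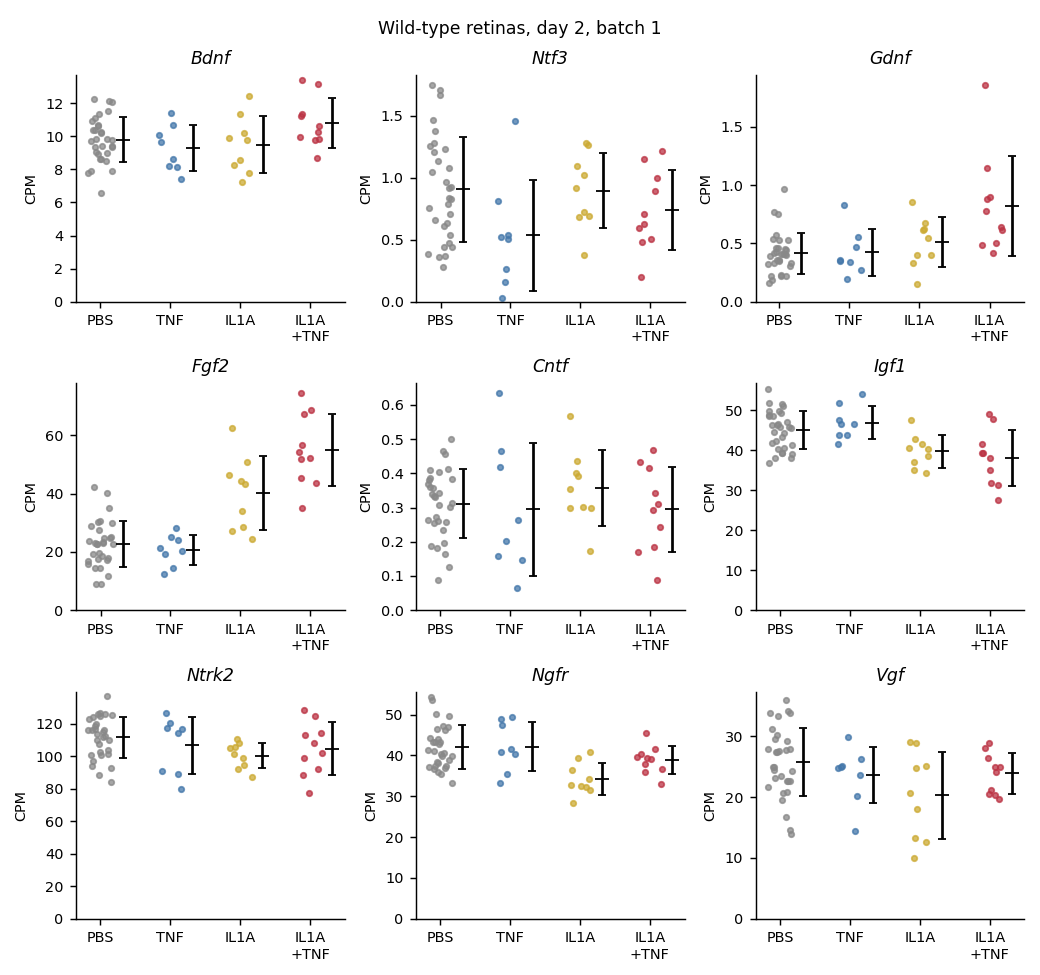
CPM (linear axis from 0) of the 9 members in each wild-type retina of day 2, first batch, after PBS (n = 31), TNF (n = 8), IL1A (n = 9) and IL1A+TNF (n = 10). Points are retinas and bars are mean ± SD; Fgf2 after IL1A+TNF (35.0 to 74.7 CPM) sits above nearly all PBS retinas, and the other members overlap across groups.

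Markers of glia, blood cells, photoreceptors and other cells moved in the same retinas. After IL1A+TNF, 3 of 4 astrocyte markers were higher and 1 was lower, and their summed level was 164.2 to 383.5 CPM against 71.27 to 207.5 CPM after PBS. Of 8 Müller glia markers, 3 were higher and 4 lower, with a sum of 2077 to 3770 CPM against 2854 to 4913 CPM, and of 7 microglia markers, 5 were higher and 1 lower, with a sum of 126.1 to 205.7 CPM against 68.07 to 119.1 CPM. Of 8 monocyte and macrophage markers, 7 were higher, with sums of 245.8 to 757.0 CPM against 12.83 to 130 CPM, and no marker of these 4 lists had a median under 0.1 CPM. Of 11 ganglion cell markers, 10 were lower, with sums of 597.5 to 755.8 CPM against 658.2 to 929.3 CPM. All 5 tested neutrophil markers were higher (117.1 to 745 CPM against 2.401 to 129.3 CPM, with 1 of the 6 listed under a median of 0.1 CPM), as were all 5 endothelial markers (308.2 to 489.7 CPM against 208.7 to 410.6 CPM). All 4 cone markers were lower (110.3 to 650.3 CPM against 577 to 919.2 CPM), as were 4 of 5 rod markers (20640 to 38160 CPM against 32780 to 51580 CPM) and 4 of 5 pigment epithelium markers (84.78 to 181.8 CPM against 165.7 to 361.5 CPM). Amacrine cell markers were lower in 5 of 5 and bipolar cell markers in 4 of 5. The gene Rlbp1 is in both the Müller glia and the pigment epithelium list, here and below, so their sums are not separate measures. The part of these cells in the levels of Fgf2, Gdnf and Igf1 was not tested.

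IL1A alone, which the study injected to ask whether it acts by itself, moved 4 of the 9 members at day 2, with Fgf2 higher and Ngfr, Vgf and Igf1 lower, against 21.4% of all genes. Fgf2 stood between 24.6 and 62.4 CPM in the 9 IL1A retinas (median 43.3 CPM), all above the PBS mean and 5 above every PBS retina. Its log2 fold change was 0.87 ± 0.16 (limma adjusted p = 1.98e-05). With each mouse as a fixed block, it was 0.77 and did not pass (limma adjusted p = 0.0885). Among the 7 mice with both eyes, Fgf2 was higher in the IL1A eye of 6 and lower in that of 1.

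The p75 receptor gene Ngfr fell after IL1A. Its level was 28.3 to 40.8 CPM (median 32.7 CPM) in the 9 IL1A retinas and 33.3 to 54.3 CPM (median 41.1 CPM) in the PBS retinas. All 9 lay below the PBS mean and 5 below every PBS retina, and Ngfr was lower in the IL1A eye of all 7 mice with both eyes. On the log2 scale the difference was -0.29 ± 0.06 (limma adjusted p = 0.000467).

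The calls of Vgf and Igf1 after IL1A were close to the threshold. Vgf, a secreted peptide precursor that neurotrophins induce, ranged from 9.91 to 29.1 CPM against 13.9 to 36.1 CPM after PBS, with a log2 fold change of -0.36 ± 0.13 (limma adjusted p = 0.0423). Igf1 ranged from 34.2 to 47.5 CPM, with a log2 fold change of -0.17 ± 0.06 (limma adjusted p = 0.0447). With any 1 of the 9 IL1A retinas left out, Vgf passed in 4 of 9 fits and Igf1 in 3 of 9, and neither passed with the mouse as a fixed block (limma adjusted p = 0.872 for Vgf and 0.449 for Igf1). The TrkB gene Ntrk2 was lower in the IL1A eye of all 7 mice with both eyes, with a log2 fold change of -0.14 ± 0.07 that did not pass (limma adjusted p = 0.13) and of -0.17 with the fixed block (limma adjusted p = 0.045).

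Cell markers moved after IL1A as well. Of 8 monocyte and macrophage markers, 7 were higher, with sums of 62.33 to 341 CPM against 12.83 to 130 CPM after PBS, as were 6 of 7 microglia markers (112.3 to 180.1 CPM against 68.07 to 119.1 CPM), all 5 tested neutrophil markers (63.26 to 345.7 CPM against 2.401 to 129.3 CPM) and all 5 endothelial markers (346.3 to 440.5 CPM against 208.7 to 410.6 CPM). Of 11 ganglion cell markers, 8 were lower (497.3 to 817 CPM against 658.2 to 929.3 CPM), as were all 4 cone markers (208.2 to 644.2 CPM against 577 to 919.2 CPM), 4 of 5 rod markers (22130 to 40620 CPM against 32780 to 51580 CPM) and 3 of 5 pigment epithelium markers (107.3 to 187.8 CPM against 165.7 to 361.5 CPM). Of 8 Müller glia markers, 2 were higher and 3 lower, with a sum of 2395 to 3507 CPM against 2854 to 4913 CPM. Amacrine cell markers were lower in 5 of 5, bipolar cell markers in 1 of 5, and 2 of 4 astrocyte markers were higher. The part of these cells in the levels of Fgf2, Ngfr, Vgf and Igf1 was not tested.

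TNF alone called none of the 9 members at day 2 with limma, edgeR or DESeq2, against 0.486% of all genes with limma. At an unadjusted p under 0.05 there was 1 member, Ntf3, the neurotrophin-3 gene, which stood at 0.0289 to 1.46 CPM after TNF and at 0.281 to 1.75 CPM after PBS. Of the 8 TNF retinas, 7 lay below the PBS mean and 3 below every PBS retina. Its log2 fold change was -1.08 ± 0.39 and did not pass (limma adjusted p = 0.33). For Fgf2, the interval of the log2 difference after TNF ran from -0.45 to 0.32, and for Bdnf from -0.25 to 0.09.

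The injections were also set against each other. IL1A+TNF differed from TNF in 3 of 9 members against 39% of all genes, with log2 differences of 1.38 for Fgf2 (limma adjusted p = 5.03e-07), 0.87 for Gdnf (limma adjusted p = 0.00828) and -0.31 for Igf1 (limma adjusted p = 0.00145). IL1A differed from TNF in 2 of 9 members against 9.01% of all genes, with 0.94 for Fgf2 (limma adjusted p = 0.00364) and -0.28 for Ngfr (limma adjusted p = 0.0225). IL1A+TNF differed from IL1A in 0 of 9 members against 10.2% of all genes, and 0 of 9 also with edgeR and DESeq2, although 3 had an unadjusted p under 0.05. Those were Gdnf at 0.59 ± 0.25, Fgf2 at 0.44 ± 0.18 and Ngfr at 0.18 ± 0.08 on the log2 scale. These comparisons share retinas and are not independent of each other.

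A departure of IL1A+TNF from the sum of the separate effects was called for 0 of 9 members by limma, edgeR and DESeq2, against 3.54% of all genes by limma, and no member had an unadjusted p under 0.05. The intervals were wide, at -0.02 to 1.03 for Fgf2 and -0.13 to 1.28 for Gdnf on the log2 scale. The IL1A+TNF effect differed between male and female retinas for 0 of 9 members by each tool, against 0% of all genes by limma (1265 genes below 0.05 before adjustment). The member with an unadjusted p under 0.05 was Igf1, with a male minus female difference of 0.33 ± 0.12 (limma adjusted p = 0.755). What had been injected into the fellow eye was called for 0 of 9 members in 23 PBS retinas by each tool, against 0% of all genes by limma (643 genes below 0.05 before adjustment), and 2 members, Fgf2 and Vgf, had an unadjusted p under 0.05 (limma adjusted p = 1.00 for both).

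**Figure D2:**
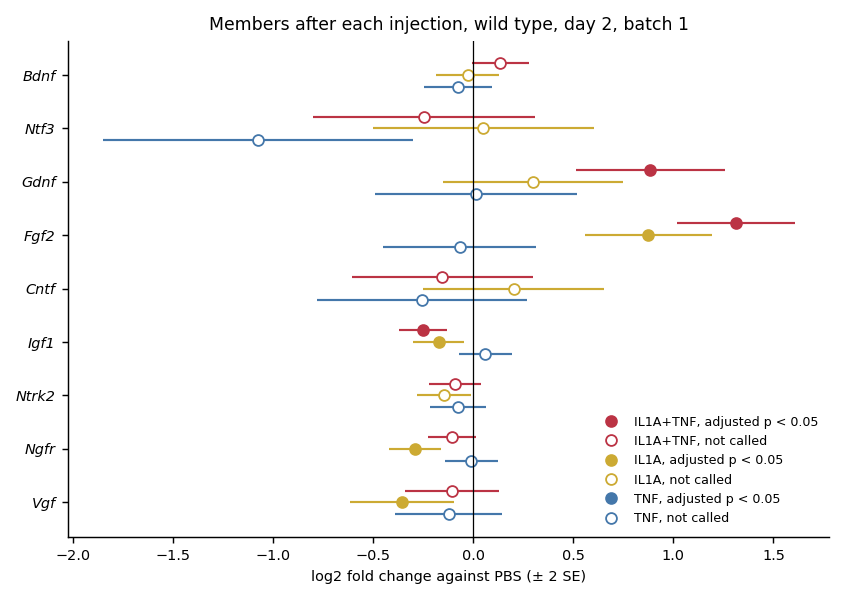
Log2 fold change against PBS (horizontal axis, bars ± 2 SE) of each member after IL1A+TNF, IL1A and TNF in wild-type retinas at day 2, first batch; filled points passed an adjusted p of 0.05. Fgf2 lies to the right after IL1A+TNF (1.31) and IL1A (0.87) and near 0 after TNF (-0.07), and no TNF point is filled.

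Levels in the PBS retinas differed between days. Between day 2 and day 14, 4 of 9 members differed in PBS retinas against 18.8% of all genes, with Fgf2, Ntf3 and Ngfr lower and Igf1 higher. Fgf2 ranged from 8.11 to 15.7 CPM in the 7 PBS retinas of day 14 (median 10.6 CPM), all below the day 2 mean of 22.7 CPM, and 3 lay below every day 2 retina. The log2 difference was -1.03 ± 0.25 (limma adjusted p = 0.00254). Ntf3 ranged from 0 to 0.764 CPM on day 14, all 7 below the day 2 mean of 0.907 CPM, with a log2 difference of -1.51 ± 0.49 (limma adjusted p = 0.0235). Ngfr stood at 32.5 to 43.8 CPM, with a log2 difference of -0.20 ± 0.07 (limma adjusted p = 0.0403). Igf1 stood at 45.8 to 55.4 CPM, above the day 2 mean of 45.0 CPM in all 7, with a log2 difference of 0.21 ± 0.06 (limma adjusted p = 0.00706). Of the 7 retinas of day 14, 2 were the eyes of 1 mouse, and this fit counted each retina as its own sample. Without that mouse, Fgf2 (-0.96 ± 0.29, limma adjusted p = 0.0202) and Ntf3 (-1.80 ± 0.60, limma adjusted p = 0.0379) still passed, while Ngfr (-0.17 ± 0.08, limma adjusted p = 0.167) and Igf1 (0.18 ± 0.06, limma adjusted p = 0.0539) did not. The days were compared between different mice, so time since injection and age at collection cannot be told apart.

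From day 14 to day 35, 1 of 9 members passed against 3.97% of all genes. Bdnf, the main ligand of TrkB, was 11.5, 12.6, 13.5, 15.4, 16.1 and 17.5 CPM in the 6 PBS retinas of day 35 and ranged from 7.39 to 12.2 CPM in the 7 of day 14. All 6 lay above the day 14 mean and 5 above every day 14 retina, with a log2 difference of 0.49 ± 0.12 (limma adjusted p = 0.0133). Without the day 14 mouse that gave both PBS eyes, it was 0.41 ± 0.13 and did not pass (limma adjusted p = 0.0865), and 0 of 9 members passed with limma. Fgf2 ranged from 2.95 to 7.61 CPM on day 35, below every PBS retina of day 14. Its log2 difference was -1.10 ± 0.41 and did not pass with limma (adjusted p = 0.114), while edgeR (-1.05, adjusted p = 0.0204) and DESeq2 (-1.04, adjusted p = 0.00709) called it. Vgf stood at 29.1 to 61.6 CPM on day 35 and 23.7 to 38.8 CPM on day 14, with a log2 difference of 0.48 ± 0.17 that did not pass (limma adjusted p = 0.107). Gdnf, Cntf and Ntrk2 were called in neither interval.

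Marker levels moved with the day as well. The summed level of 4 astrocyte markers in PBS retinas was 71.27 to 207.5 CPM on day 2, 47.50 to 72.41 CPM on day 14 and 30.17 to 41.19 CPM on day 35, and that of 7 microglia markers was 68.07 to 119.1, 49.08 to 61.04 and 37.37 to 47.12 CPM. The sum of the 5 genes of the pigment epithelium list, which shares Rlbp1 with the Müller glia list, went the other way. It was 165.7 to 361.5 CPM on day 2 and 296.2 to 412.9 CPM on day 14. No marker of these 3 lists had a median under 0.1 CPM in these groups. The part of these cells in the levels of Fgf2, Ntf3, Ngfr and Igf1 was not tested.

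At days 14 and 35, TNF was compared with PBS because ganglion cells are lost late after it. TNF called 0 of 9 members on day 14 and 0 of the 8 tested on day 35 by limma, edgeR and DESeq2, where 0% of all genes passed by limma on either day (773 of 18023 and 879 of 17821 genes below 0.05 before adjustment). Ntf3 was too low to be tested on day 35, at 0.0278 to 0.412 CPM after PBS and 0 to 0.356 CPM after TNF. The 1 member with an unadjusted p under 0.05 was Fgf2 on day 35, at 4.84 to 8.53 CPM in the 9 TNF retinas and 2.95 to 7.61 CPM in the 6 PBS retinas. Of the TNF retinas, 8 lay above the PBS mean and 3 above every PBS retina, with a log2 fold change of 0.51 ± 0.17 (limma adjusted p = 0.882). The TNF effect of day 14 minus that of day 2, and that of day 35 minus day 2, was called for 0 of 9 members by each tool and for 0% of all genes by limma, with 750 and 501 genes below 0.05 before adjustment. For Ntf3 the day 14 effect exceeded the day 2 effect by 1.99 ± 0.71 on the log2 scale (limma adjusted p = 0.999), the 1 such member with an unadjusted p under 0.05.

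**Figure D3:**
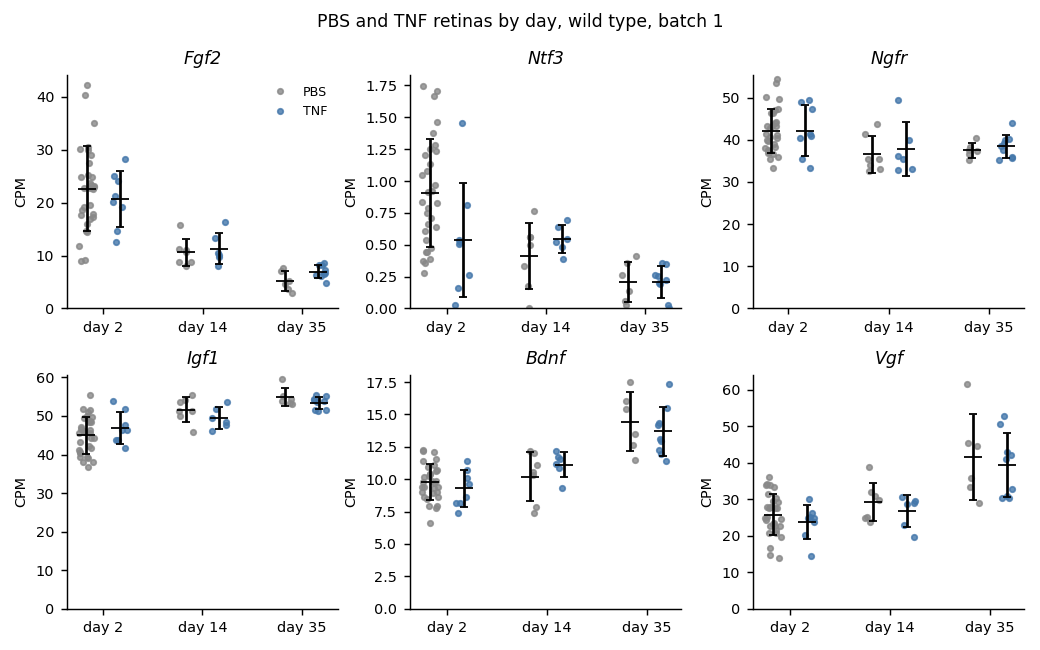
CPM (linear axis from 0) of Fgf2, Ntf3, Ngfr, Igf1, Bdnf and Vgf in each wild-type PBS (grey) and TNF (blue) retina of the first batch at days 2, 14 and 35, with mean ± SD. Fgf2 in PBS retinas goes from a mean of 22.7 CPM on day 2 to 10.6 and 5.19 CPM, and PBS and TNF retinas of the same day overlap in each panel.

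The second batch repeated IL1A+TNF at day 2 in wild-type mice. In a fit of that batch alone, 1 of 9 members passed against 20.7% of all genes, and it was Fgf2. Its levels were 13.1, 13.8, 16.4, 28.3 and 31.05 CPM in the 5 PBS retinas and 42.7, 52.3, 52.6, 60.9, 62.8 and 65.3 CPM in the 6 IL1A+TNF retinas, so the groups did not overlap. The log2 fold change was 1.48 ± 0.31 (limma adjusted p = 0.00186), and Fgf2 was higher in the IL1A+TNF eye of all 5 mice with both eyes. Gdnf stood at 0.469 to 0.869 CPM after PBS and 0.554 to 1.80 CPM after IL1A+TNF (0.75 ± 0.84 on the log2 scale, limma adjusted p = 0.541), and Igf1 at 41.8 to 64.5 and 25.3 to 51.4 CPM (-0.58 ± 0.36, limma adjusted p = 0.264).

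That fit takes its spread from the Sarm1-/- retinas too. Without the mice of Sarm1-/- IL1A+TNF replicates 4 and 5 (both eyes left out), 3 of 9 members passed in the wild-type retinas against 34.8% of all genes. Those were Fgf2 at 1.51 ± 0.27 (limma adjusted p = 0.000614), Ntrk2 at -0.32 ± 0.10 (limma adjusted p = 0.0175) and Igf1 at -0.60 ± 0.18 (limma adjusted p = 0.0188). With the mouse as a fixed block the 3 were Fgf2, Ntrk2 at -0.32 (limma adjusted p = 0.0389) and Vgf at -0.32 (limma adjusted p = 0.0122).

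The Sarm1-/- retinas were included to ask which responses need SARM1. After PBS, 0 of 9 members differed between Sarm1-/- and wild-type retinas by limma, edgeR or DESeq2, against 0.0397% of all genes by limma. Bdnf was the 1 member with an unadjusted p under 0.05, at 10.8 to 15.3 CPM in the 6 Sarm1-/- PBS retinas and 10.4 to 11.8 CPM in the 5 wild-type PBS retinas (0.34 ± 0.13 on the log2 scale, limma adjusted p = 0.796).

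In Sarm1-/- mice, IL1A+TNF moved 8 of 9 members against 43.6% of all genes, but 7 of the 8 calls were lost without 2 of the 6 mice. Fgf2, Gdnf, Cntf and Ngfr were higher, and Bdnf, Ntrk2, Vgf and Igf1 were lower. Without the mice of replicates 4 and 5, whose PBS eyes were left out too, so that 4 retinas remained in each group, 1 of 9 members passed against 4.4% of all genes, and it was Fgf2. With the mouse as a fixed block over the 6 pairs of eyes, 0 of 9 members and 0 of 18633 genes passed with limma. The count of all genes was 8792 with all retinas and 5712 without the mouse of replicate 4.

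Fgf2 was the member still called without the 2 mice. It was 10.045, 13.4, 18.6, 23.5, 26.9 and 32.5 CPM in the Sarm1-/- PBS retinas and 29.5, 35.1, 42.4 and 49.9 CPM in the other 4 IL1A+TNF retinas, with 73.4 and 68.0 CPM in replicates 4 and 5. Fgf2 was higher in the IL1A+TNF eye of all 6 mice. The log2 fold change was 1.30 ± 0.25 with all retinas (limma adjusted p = 1.83e-05) and 0.96 ± 0.30 without the 2 mice (limma adjusted p = 0.0462). It did not differ by genotype in the test of the difference, at -0.07 ± 0.28 with all retinas (limma adjusted p = 0.92) and -0.40 ± 0.33 without the 2 mice (limma adjusted p = 0.64).

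Gdnf showed how far apart the 2 retinas lay. It was 14.2 and 14.5 CPM in replicates 4 and 5, against 0.236, 0.591, 1.76 and 2.58 CPM in the other 4 Sarm1-/- IL1A+TNF retinas and 0.439 to 0.941 CPM after PBS. The log2 fold change of 2.14 ± 0.50 (limma adjusted p = 0.000309) became 0.86 ± 0.40 without the 2 mice and did not pass (limma adjusted p = 0.202). Sarm1-/- exceeded wild-type retinas after IL1A+TNF by 1.33 ± 0.42 (limma adjusted p = 0.0219), which became -0.03 ± 0.32 without the 2 mice (limma adjusted p = 0.98).

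The receptors went in opposite directions in the 2 retinas. Ngfr was 110 and 114 CPM in replicates 4 and 5, against 35.7, 40.4, 40.8 and 50.9 CPM in the other 4 and 40.9 to 49.1 CPM after PBS. Its log2 fold change of 0.38 ± 0.14 (limma adjusted p = 0.0274) turned to -0.14 ± 0.12 without the 2 mice (limma adjusted p = 0.555). Ntrk2 was 38.0 and 77.2 CPM in replicates 4 and 5, against 78.8 to 110 CPM in the other 4 and 108 to 133 CPM after PBS, and its -0.60 ± 0.12 (limma adjusted p = 6.75e-05) became -0.32 ± 0.13 (limma adjusted p = 0.13).

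Bdnf, Igf1 and Vgf were lowest in the same 2 retinas. Bdnf was 2.80 and 5.41 CPM there, against 6.92, 10.03, 10.9 and 11.2 CPM in the other 4 and 10.8 to 15.3 CPM after PBS. Igf1 was 6.63 and 6.14 CPM, against 25.5, 36.1, 43.7 and 45.0 CPM in the other 4 and 42.3 to 79.7 CPM after PBS. Vgf was 7.82 CPM in both, against 10.01, 18.2, 23.2 and 23.3 CPM in the other 4 and 19.6 to 25.3 CPM after PBS. The log2 fold changes of -0.82 for Bdnf, -1.28 for Igf1 and -0.75 for Vgf became -0.41, -0.35 and -0.37 without the 2 mice, and none of the 3 passed (limma adjusted p = 0.0677, 0.162 and 0.363). Cntf, at 0.295 to 0.499 CPM after IL1A+TNF and 0.132 to 0.312 CPM after PBS, had a log2 fold change of 0.75 ± 0.31 (limma adjusted p = 0.0413) that became 0.64 ± 0.38 (limma adjusted p = 0.344).

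Between genotypes after IL1A+TNF, 6 of 9 members differed against 15% of all genes with all retinas, and 0 of 9 against 0.831% without the 2 mice. Of the 6, Gdnf and Ngfr were higher in Sarm1-/- retinas and Bdnf, Ntrk2, Vgf and Igf1 were lower. In the test of the genotype by treatment difference, 3 of 9 members passed against 8.85% of all genes: Bdnf at -0.88 ± 0.17 (limma adjusted p = 0.00246), Ntrk2 at -0.45 ± 0.14 (limma adjusted p = 0.0316) and Igf1 at -0.94 ± 0.24 (limma adjusted p = 0.0128). Without the 2 mice the values were -0.45, -0.17 and 0.002 on the log2 scale and 0 of 9 passed, against 0% of all genes with limma. In the second batch alone, with all its retinas, 0 of 9 members passed this test and 0 of 9 the comparison between genotypes after IL1A+TNF. Without the mouse of replicate 4 alone, 0 members passed this test, and without that of replicate 5 alone, 1 did. Gdnf, which did not pass this test with limma (1.33 ± 0.60, adjusted p = 0.163), was called by edgeR at 2.15 (adjusted p = 0.0146) and DESeq2 at 2.15 (adjusted p = 0.00451) with all retinas, and without the 2 mice it was 0.0084 ± 0.45 with limma (adjusted p = 0.997). With all retinas, edgeR and DESeq2 each called 3 of 9 members in this test, Gdnf among them. Neither tool therefore called all of Bdnf, Ntrk2 and Igf1. In replicates 4 and 5 the summed level of 8 monocyte and macrophage markers was 613.8 and 603.4 CPM, against 174.8 to 367.6 CPM in the other 4 Sarm1-/- IL1A+TNF retinas. The part of these cells, and of the low ganglion and amacrine cell markers, in the levels of the members was not tested.

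**Figure D4:**
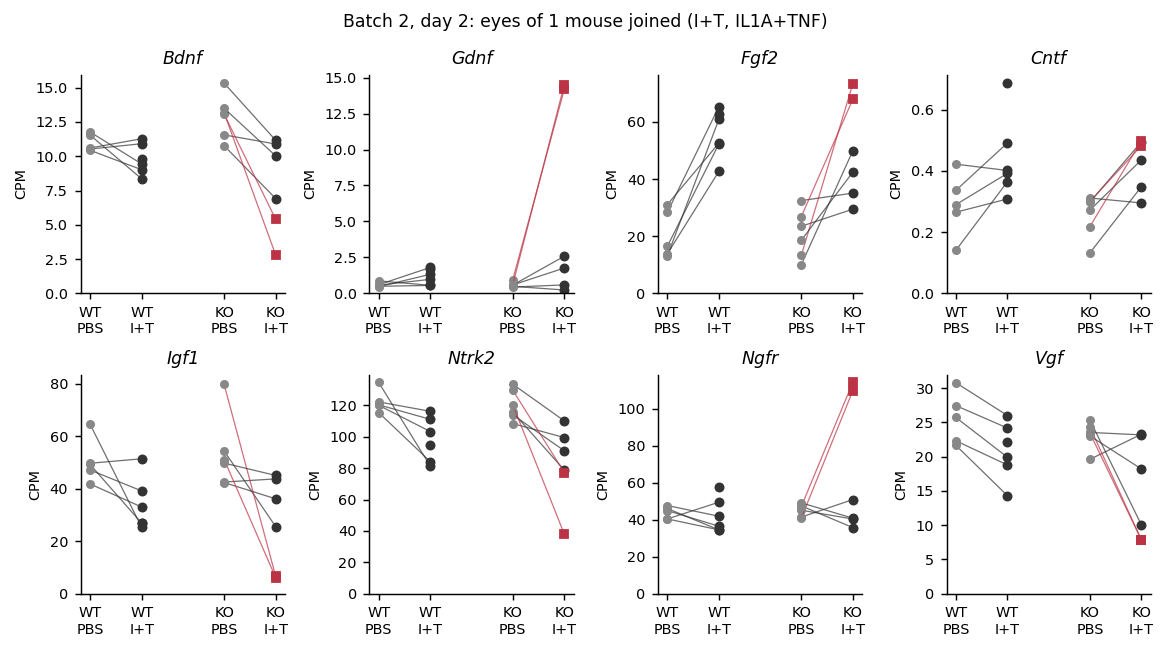
CPM (linear axis from 0) of 8 members in the second batch at day 2, with lines joining the eyes of 1 mouse (WT, wild type; KO, Sarm1-/-; I+T, IL1A+TNF). The red squares are Sarm1-/- IL1A+TNF replicates 4 and 5, which hold the highest Gdnf (14.2 and 14.5 CPM) and Ngfr (110 and 114 CPM) and the lowest Igf1 (6.63 and 6.14 CPM).

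Other genes of the same pathways were followed in 8 lists. After IL1A+TNF in wild-type retinas of the first batch, where 50.4% of all genes passed and the median log2 fold change of all genes was -0.02, the list of CNTF family ligands and receptors had 7 of 12 tested genes higher and 1 lower, with a median of 0.63. Osm, a cytokine of that family, was higher by 1.94 ± 0.37, Socs3, an inhibitor of gp130 signaling that the pathway induces, by 1.77 ± 0.21, Clcf1, another ligand, by 0.85 ± 0.14, and the receptor gene Osmr by 0.75 ± 0.12. After IL1A alone, where 21.4% of all genes passed, 5 of the 12 were higher and 1 was lower.

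The neurotrophin list had 3 of 17 tested genes higher and 8 lower, with a median of -0.08. Nradd, which encodes a receptor-like protein related to p75, was higher by 0.56 ± 0.10, and Furin, a protease that cleaves neurotrophin precursors, by 0.39 ± 0.04. Rtn4r, the Nogo receptor gene, was lower by -0.57 ± 0.10 and Sorcs3, of the sortilin family, by -0.38 ± 0.07 on the log2 scale. The list of GDNF family ligands and receptors had 1 of 11 higher and 4 lower (median -0.14), with Gdf15, a distant ligand of the family, at 1.06 ± 0.19, the neurturin co-receptor gene Gfra2 at -0.68 ± 0.07 and Gfra4 at -0.34 ± 0.07, with the adhesion molecule gene Ncam1 at -0.17 ± 0.04, while the GDNF co-receptor gene Gfra1 did not pass at -0.07 ± 0.08 (limma adjusted p = 0.46).

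The list of FGF ligands and receptors had 1 of 14 higher and 5 lower (median -0.14). Fgfrl1, which encodes a receptor without a kinase domain, was at 0.51 ± 0.10, and the ligand genes Fgf22 and Fgf1 were at -0.59 ± 0.15 and -0.46 ± 0.06, with the adaptor gene Frs3 at -0.29 ± 0.05. Of 10 genes that the FGF to ERK route induces and that feed back on it, 3 were higher and 3 lower (median -0.02), with the phosphatase genes Dusp6 at 0.59 ± 0.07 and Dusp4 at -0.64 ± 0.09, the transcription factor gene Etv4 at -0.42 ± 0.10 and the FGF signaling inhibitor gene Il17rd at 0.24 ± 0.09. The IGF list had 5 of 16 higher and 4 lower (median -0.12): Igf2 was at -1.49 ± 0.13 (limma adjusted p = 2.66e-14), the protease gene Pappa2 at -0.66 ± 0.07, and the genes of the binding proteins Igfbp3 and Igfbp6 at 1.40 ± 0.19 and 0.65 ± 0.18.

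Of 19 secretory granule and activity-regulated genes, the group in which Vgf is usually placed, 6 were higher and 7 lower (median -0.02), with the transcription factor genes Egr2 at 2.23 ± 0.20, Fosb at 0.77 ± 0.13, Egr1 at 0.54 ± 0.22 and Nr4a1 at 0.34 ± 0.11. Of 22 other trophic factors, 10 were higher and 7 lower (median 0.09), with Tgfb1 at 1.55 ± 0.15, Edn2 at 1.36 ± 0.18, Grn at 0.96 ± 0.10 and Pgf at 0.83 ± 0.17. After TNF at day 2, where 0.486% of all genes passed, no gene of the 8 lists passed. With all retinas, the genotype by treatment test (8.85% of all genes) called 6 of 17 neurotrophin genes, all lower in Sarm1-/-, among them Pcsk1, a prohormone convertase gene, at -1.32 ± 0.24, Sorcs3 at -0.75 ± 0.25, Lingo1 at -0.69 ± 0.19, Sorcs1 at -0.41 ± 0.11 and Maged1 at -0.22 ± 0.06. Of the GDNF list, Ret, Gfra1 and Gfra4 were lower by -0.81, -0.80 and -0.74 on the log2 scale. The granule genes Scg2, Scg3 and Chga and the pentraxin gene Nptx1 were lower, at -0.98, -0.43, -0.39 and -0.40. Fgf1, Spry1, Spred1, Pappa2 and Ptn were also lower (-0.71, -0.37, -0.25, -0.79 and -0.72), and Spry2, Stc2, Vegfa, Cdnf and Hbegf were higher (0.48, 1.01, 0.52, 0.35 and 0.90). Without the 2 mice no gene of the 8 lists passed this test.

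**Figure D5:**
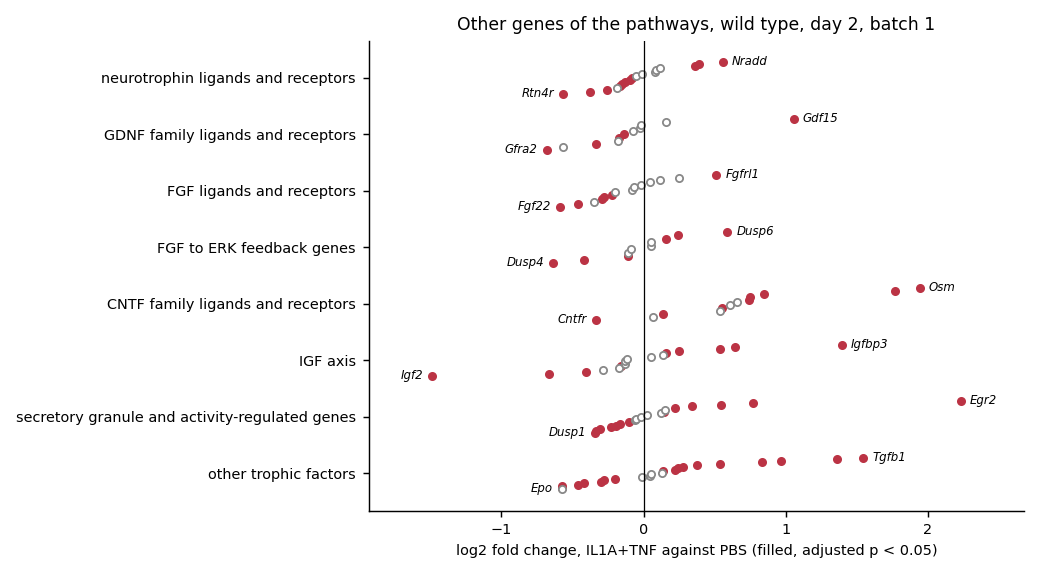
Log2 fold change of IL1A+TNF against PBS at day 2 (first batch, wild type, horizontal axis) for each tested gene of the 8 pathway lists; filled points passed an adjusted p of 0.05, and the lowest and highest gene of each list are named. Points of the CNTF family lie mostly to the right (median 0.63), while those of the neurotrophin, GDNF and FGF lists lie on both sides of 0. In each of these lists, more of the filled points are lower than higher.

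Genes whose log2 CPM followed a member most closely over the 58 wild-type retinas of day 2, first batch, are given as a description, since these retinas share treatments. For Fgf2 they were Nudt6 (Pearson r = 0.961), Agtpbp1 (r = 0.954) and Antxr2 (r = 0.937), with r of 0.892, 0.910 and 0.870 over the 31 PBS retinas alone. For Gdnf they were Lbr (r = 0.728), Ednrb (r = 0.666) and Cdc42se1 (r = 0.662), with lower r of 0.409, 0.383 and 0.501 over the PBS retinas. For Ntf3 they were Otx1 (r = 0.878), Gja1 (r = 0.861) and Zic1 (r = 0.848). For Ntrk2 they were Pkp4 (r = 0.866), Lgr4 (r = 0.849) and Efna5 (r = 0.847), and for Igf1 Asph (r = 0.829), Tef (r = 0.829) and Rab27b (r = 0.820). The highest r was 0.687 for Vgf with Ubqln4, 0.661 for Bdnf with Wrb and 0.656 for Ngfr with Sgsm1.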

How the data were processed

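Polyadenylated RNA of whole retinas was sequenced as paired ends, and the authors deposited 1 table of raw counts of read pairs per Ensembl gene. The submitters' processing notes name STAR 2.7.9a, featureCounts of Subread 2.0.1 and the mm10 genome; the annotation release and strand setting are not given in the sources used here. Groups came from the genotype, treatment, time and batch labels, which give days 2, 14 and 35. Jun-deficient mice were not analysed here.

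Counts were filtered with filterByExpr (minimum 10, total 15, share 0.7, large group 10), scaled by TMM (edgeR 4.0.16) and fitted with limma 3.58.1 (R 4.3.3): voom and duplicateCorrelation, 2 rounds, the mouse as block (none between days or fellow eyes), sex as a covariate, with a batch term where both batches entered. Eyes paired by mouse from the labels; the correlation within mice was 0.0515 at day 2, 0.284 at day 14, 0.0794 at day 35 and -0.0763 in the second batch. edgeR and DESeq2 1.42.0 were alternatives, fitted without the mouse as block, so they count the eyes of a mouse as separate samples. The fit of day 2 in the first batch was tested on simulated counts, for IL1A+TNF against PBS only and with no mouse effect simulated. The other fits were not tested in this way. CPM divides by the sum of all counts of a retina times the TMM factor. Intervals are 2 standard errors. No label says more of how retinas were replicated than mouse and eye.

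The members and lists were chosen with earlier results of these data known. The text names all members, of each list at most the 4 called genes with the largest change after IL1A+TNF and those called after TNF or in the genotype by treatment test, and the 3 genes most correlated with a member, of which fewer are printed for Vgf, Bdnf and Ngfr and none for Cntf, whose counts were sparse. A list gene that this rule names is not reported here.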

Additional observations from a re-analysis of the deposited data

Results flagged for a closer look

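In groups of 4 to 10 retinas, 7 of 99 member and group combinations had 1 retina far from the others by Dixon's criterion, and chance gives about 1 in 20. Gdnf was highest in wild-type IL1A+TNF replicate 2 of the first batch (1.86 CPM, next 1.15 CPM), TNF day 14 replicate 5 (0.716 CPM, next 0.504 CPM) and Sarm1-/- PBS replicate 4 (0.941 CPM, next 0.600 CPM). Fgf2 was highest in PBS day 14 replicate 5 (15.7 CPM, next 11.2 CPM). Igf1 was highest in PBS day 35 replicate 1 (59.5 CPM, next 55.1 CPM) and Sarm1-/- PBS replicate 4 (79.7 CPM, next 54.4 CPM). Ntf3 was highest in wild-type IL1A+TNF replicate 5 of the second batch (1.76 CPM, next 0.953 CPM).

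With limma, the response to IL1A+TNF differed between genotypes for 3 members, by -0.88 for Bdnf, -0.45 for Ntrk2 and -0.94 for Igf1 on the log2 scale. None of these differences passed without the mice of Sarm1-/- IL1A+TNF replicates 4 and 5.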

How the results depend on the processing

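Counts of members called moved in the comparisons that follow. For IL1A the 4 members became 2 with no filter on low counts. For PBS at day 35 against day 14, 1 became 2 with edgeR and 2 with DESeq2. Between genotypes after IL1A+TNF, 6 became 2 with edgeR and 0 in the second batch alone, and the 3 of genotype by treatment became 0 in the second batch alone. Without Sarm1-/- IL1A+TNF replicates 4 and 5 and their PBS eyes, chosen after seeing the data, the counts were 3 (1 with all) for wild-type IL1A+TNF in the second batch, 1 (8) for Sarm1-/- IL1A+TNF, 0 (6) between genotypes after IL1A+TNF and 0 (3) for genotype by treatment. There the sign turned for Ngfr after IL1A+TNF in Sarm1-/- (-0.14), Gdnf and Igf1 between genotypes (-0.028 and 0.043) and Igf1 in genotype by treatment (0.00196). Without the mouse whose eyes were both PBS retinas of day 14, also chosen after seeing the data, 4 members became 2 for day 14 against day 2 and 1 became 0 for day 35 against day 14, where all genes called went from 770 to 250. Leaving out 1 mouse at a time gave 2 to 4 members for IL1A, 3 to 4 for IL1A+TNF, 1 to 2 for the second wild-type batch, 6 to 8 for Sarm1-/- IL1A+TNF, 0 to 6 between genotypes and 0 to 6 for genotype by treatment, the last 2 reaching 0 without the mouse of replicate 4. Fgf2, Gdnf and Igf1 after IL1A+TNF passed in 10 of 10 such fits.

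With the mouse as a fixed replicate block, which keeps only pairs of eyes, the members called were 2 for IL1A, 3 for the second wild-type batch and 0 for Sarm1-/- IL1A+TNF. All genes called under this pairing went from 4187 to 1232 for IL1A, from 95 to 0 for TNF at day 2, from 0 to 2 for TNF at day 35 and from 8792 to 0 for Sarm1-/- IL1A+TNF. The list genes Gfra4, Fgf22, Il17rd, Igfbp6, Egr1 and Nr4a1 no longer passed after IL1A+TNF in this fit (limma adjusted p = 0.0886, 0.197, 0.136, 0.0558, 0.18 and 0.237).

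All genes called also moved by over 1.5 times for TNF at day 2 (95, with edgeR 242, with DESeq2 268, in a joint fit of the first batch 225), non-additivity (692, with no filter 428, with DESeq2 1118, joint 1236), PBS at day 35 against day 14 (770, with edgeR 1234, with DESeq2 1541), the TNF effect of day 14 minus day 2 (0, with DESeq2 3) and sex (0, with edgeR 1, with DESeq2 1). They moved likewise for genotype after PBS (8, in the second batch alone 2), genotype after IL1A+TNF (3023, with edgeR 1195, with DESeq2 1595, second batch alone 131) and genotype by treatment (1784, with edgeR 181, with DESeq2 430, second batch alone 0, without replicate 4 0, without replicate 5 14, without Sarm1-/- replicate 1 2746). The cause was not tested. The fit with no filter kept the mouse correlation of the filtered genes.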
